A study of Mus musculus with 30 samples.

Results

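A set of 9 genes of glycogen metabolism and glucose production was followed in mouse liver. The genes were chosen by function, with earlier results of these data known, and they were 9 of the 55335 genes in the count table. The set held 2 glycogen synthesis enzymes (Gys2 and Gbe1), 2 genes of glycogen breakdown (Pygl and Phka2), 2 subunits that bring protein phosphatase 1 to glycogen (Ppp1r3b and Ppp1r3c), and 3 enzymes of gluconeogenesis (G6pc, Pck1, and Fbp1). All 9 were found by symbol, and all 9 passed the filter on low counts in every comparison (lowest count in any library 611, for Ppp1r3c).

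The RNA was sequenced from whole livers of 30 mice, with 5 mice in each of 6 groups. The groups combined wild-type, Keap1 C151S mutant, or Nrf2-knockout mice with vehicle or CDDO-Me (bardoxolone methyl, a synthetic triterpenoid that reacts with the KEAP1 protein and activates the transcription factor NRF2). The study asked how much of the response to this drug needs the KEAP1 cysteine that is replaced in C151S mice and how much needs NRF2. All mice were males of 7 to 10 weeks on one background, albino C57BL/6J mice of the strain B6(Cg)-Tyr c-2J/J, so that the controls carried the Tyr allele too. C151S mice were homozygous for a Keap1 allele, made by genome editing, in which serine replaces the cysteine. The Nrf2-knockout mice lacked functional Nfe2l2, the gene that encodes NRF2, and the C151S and knockout alleles were carried in all cells and not in hepatocytes alone. CDDO-Me was given by mouth at 30 µmol per kg body weight, the controls received the vehicle of DMSO, Cremophor-EL, and PBS, and livers were taken 24 hours later. The libraries held 23667068 to 42073169 counted reads (median 33229925), and levels are given as CPM, the counts scaled to one common library size after normalization of library composition.

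Glycogen synthase, the liver form of which is encoded by Gys2, lengthens glycogen chains from UDP-glucose, and the branching enzyme GBE1 adds the branch points that keep glycogen soluble. Glycogen phosphorylase (PYGL) removes glucose units as glucose 1-phosphate once phosphorylase kinase, of which PHKA2 is the liver regulatory subunit, has switched it on. The targeting subunits PPP1R3B and PPP1R3C hold protein phosphatase 1 on the glycogen particle, where it activates the synthase and inactivates the phosphorylase. In gluconeogenesis PCK1 makes phosphoenolpyruvate from oxaloacetate, FBP1 acts on fructose 1,6-bisphosphate, and the catalytic subunit of glucose 6-phosphatase (G6PC) releases free glucose, a last step that glycogen breakdown in liver also uses. Several of these genes respond to insulin, glucagon, and feeding, and many have a daily rhythm in liver.

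The labels were checked against marker genes first. Hepatocyte markers were abundant in every group, with a median summed level of 4 genes between 76240 and 108700 CPM (Alb the highest), whereas the median sum of the lymphocyte list lay between 2.35 and 4.49 CPM. In bulk liver, fewer cells of a type and less RNA per cell cannot be told apart. Nfe2l2 was at 66.1 ± 4.15 CPM (SD, n = 5) in wild-type vehicle mice and at 35.1 ± 4.54 in Nrf2-knockout vehicle mice, where the reads that remain were not placed on exons here. The 10 knockout mice of both treatments (22.4 to 39.8 CPM) lay below all other mice (from 41.96 CPM). Keap1, whose C151S allele differs by a codon that gene counts do not show, was 55.1 ± 7.07 CPM in wild-type and 45.0 ± 6.11 CPM in C151S vehicle mice (adjusted p = 0.13). The 7 known NRF2 target genes used as a check all rose with CDDO-Me in wild-type mice, and 0 of 7 passed the test in either mutant. Nqo1, a quinone reductase, went from 7.20 ± 2.38 to 64.4 ± 25.0 CPM in wild-type mice, from 6.70 ± 0.386 to 7.05 ± 1.04 in C151S mice, and from 1.956 ± 0.521 to 2.55 ± 0.612 in knockout mice.

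One feature of the libraries moved with genotype. Arntl, which encodes the clock factor BMAL1, was between -1.15 and 0.90 on the log2 CPM scale in 11 libraries and between 2.52 and 4.79 in the other 19. The 11 low libraries were 2 C151S vehicle, 3 C151S CDDO-Me, 3 Nrf2-knockout vehicle, and 3 Nrf2-knockout CDDO-Me mice, and 0 were wild-type. The mutant mice with low Arntl thus had no wild-type mice at the same Arntl level, and the differences from wild-type mice that passed are given with and without the 11 libraries, which leaves 2 or 3 mutant mice a group.

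Per kilobase of exon, the gluconeogenesis enzymes had the highest mean levels over all 30 libraries, at 991 CPM per kilobase for Pck1 (SD 290.2), 724 for Fbp1 (SD 165), and 247 for G6pc (SD 157). Gys2 (91.2, SD 49.8) and Pygl (67.4, SD 11.7) followed, and their ranges overlapped. In the knockout vehicle group Gys2 (125, SD 58.1) and G6pc (156, SD 99.9) differed by less than their spread, and in wild-type mice Pygl was above Gys2 (84.7 and 61.3 CPM per kilobase with vehicle, 63.4 and 47.6 with CDDO-Me). Ppp1r3b (30.7, SD 11.5), Ppp1r3c (21.9, SD 13.3), and Gbe1 (20.6, SD 12.8) differed by no more than their spread over all libraries, although in wild-type CDDO-Me mice Gbe1 (47.3) was above Ppp1r3b (33.6). Phka2 was lowest at 5.44 (SD 0.643). The members also differed in how much they varied between mice. The highest library exceeded the lowest by 10.4-fold for Ppp1r3c, 7.76-fold for G6pc, 5.70-fold for Gbe1, 5.40-fold for Ppp1r3b, 5.06-fold for Gys2, and 4.33-fold for Pck1, but by 2.19-fold for Fbp1, 2.14-fold for Pygl, and 1.60-fold for Phka2.

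**Figure D1:**
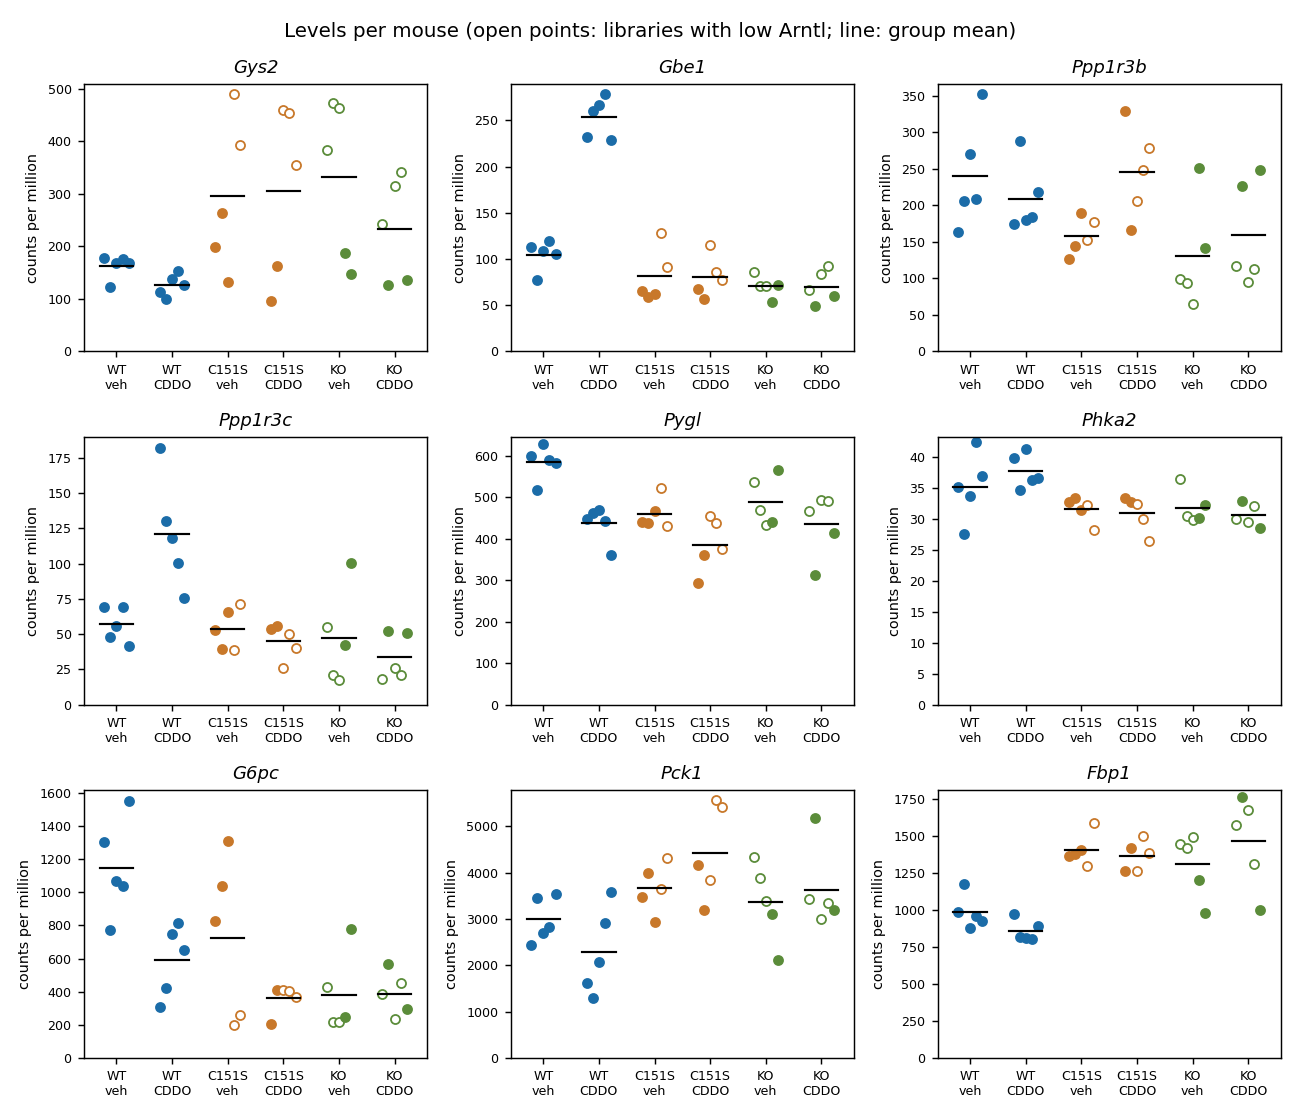
Level of each of the 9 genes in every mouse (CPM, linear axes from 0) by genotype and treatment, with 1 point a mouse, a line at each group mean, and open points for the 11 libraries with low Arntl. Gbe1 in wild-type CDDO-Me mice (229 to 278 CPM) stands above the other 25 mice, and Gys2 in C151S and knockout mice falls into a low and a high set of points.

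In wild-type mice, CDDO-Me raised the branching enzyme and 1 phosphatase targeting subunit. Of the 9 members 2 rose (Gbe1 and Ppp1r3c) and 0 fell at an adjusted p under 0.05 and a change of at least 0.5 on the log2 scale, beside 2.75% of the 13697 genes tested. Gbe1 (chr16:70313949-70569716 in mm10) was 113, 77.7, 108, 119.5, and 106 CPM in the 5 wild-type vehicle mice and 232, 260.4, 267, 278, and 229 in the 5 wild-type CDDO-Me mice. The lowest treated mouse was far above the highest control. The log2 fold change was 1.27 ± 0.11 (SE; 2.4-fold; edgeR quasi-likelihood test, Benjamini-Hochberg adjusted p = 2.8e-05), and with any 1 mouse left out it lay between 1.18 and 1.31.

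Gbe1 did not pass the test in either mutant. The C151S values were 65.8, 59.2, 62.3, 129, and 91.0 CPM with vehicle and 68.0, 57.1, 115, 86.0, and 76.9 with CDDO-Me, and the groups overlapped (log2 fold change -0.02, 95% confidence interval by the normal approximation -0.48 to 0.44, adjusted p = 0.98). The knockout values were 85.7, 70.3, 70.5, 53.1, and 72.2 CPM with vehicle and 66.9, 48.9, 83.5, 92.1, and 59.7 with CDDO-Me, which overlapped as well (-0.01, -0.36 to 0.34, adjusted p = 0.994). Both intervals end below the wild-type change.

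Ppp1r3c (chr19:36731731-36736653), the targeting subunit also called PTG, was 69.5, 48.2, 55.5, 69.3, and 41.5 CPM in the wild-type vehicle mice and 182, 129.9, 118, 100.4, and 75.6 in the wild-type CDDO-Me mice. All 5 treated mice were above all 5 controls. The log2 fold change was 1.09 ± 0.21 (2.12-fold, adjusted p = 0.0116). With 1 fit of all 30 libraries it was again 1.09, but the call was lost (adjusted p = 0.192). In C151S mice the levels were 53.4 ± 15.0 CPM with vehicle and 45.0 ± 12.1 with CDDO-Me (log2 fold change -0.25, adjusted p = 0.623). In knockout mice they were 47.4 ± 33.5 and 33.6 ± 16.4 (-0.50 ± 0.46, adjusted p = 0.811). The knockout vehicle mice ranged from 17.5 to 101 CPM, a wider range in relative terms than in the other groups.

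The promoters of Gbe1 and Ppp1r3c are shown because these members rose together in wild-type mice, and that of Fbp1 because every C151S mouse was above every wild-type mouse. The sequences are the RefSeq windows of 250 bases before the start site (GRCm38.p6, 5′ to 3′ along the gene). They were cut where the annotation used here for gene positions already places the gene. That annotation, which also gave symbols and exon lengths, is an earlier GENCODE release than the one used for counting. Capitals mark matches to 10 motifs that were searched on both strands.
Gbe1, chr16:70313699-70313948, plus strand: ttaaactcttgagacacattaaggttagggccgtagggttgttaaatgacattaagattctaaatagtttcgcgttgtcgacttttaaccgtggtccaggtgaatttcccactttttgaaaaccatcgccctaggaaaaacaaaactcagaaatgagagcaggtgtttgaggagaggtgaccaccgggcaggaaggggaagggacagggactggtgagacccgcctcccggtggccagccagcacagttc
Ppp1r3c, chr19:36736654-36736854, minus strand: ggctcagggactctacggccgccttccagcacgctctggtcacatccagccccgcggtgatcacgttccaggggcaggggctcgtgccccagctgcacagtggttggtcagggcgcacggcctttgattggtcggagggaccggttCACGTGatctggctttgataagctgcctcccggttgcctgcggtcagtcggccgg
Fbp1, chr13:62888283-62888532, minus strand: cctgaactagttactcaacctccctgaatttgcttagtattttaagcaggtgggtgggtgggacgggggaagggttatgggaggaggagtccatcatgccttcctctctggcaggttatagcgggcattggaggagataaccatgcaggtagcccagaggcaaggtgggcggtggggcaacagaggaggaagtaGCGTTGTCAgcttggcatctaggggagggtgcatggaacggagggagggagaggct
The Gbe1 window held no match to any of the 10 motifs. The Ppp1r3c window held the E-box of clock factors, CACGTG, 104 bases before the RefSeq start, which lies past the cut end of the sequence printed. Of 32536 distinct promoter windows 6.0% hold this motif. The Fbp1 window held the core of the antioxidant response element, TGACNNNGC, 56 bases before the start and on the opposite strand, as 10.2% of all windows do.

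Of the 9 members 7 had a RefSeq window, and Gys2 and Ppp1r3b did not. G6pc had the most matches: TGACNNNGC at 244 bases before the start, the insulin response core TGTTTTG of forkhead factors at 174 (5.6% of all windows), the ROR element TAGGTCA at 54 (2.2%), and the TATA box TATAAA at 29 (12.3%). The latter pair of matches lies past the start of G6pc in the annotation used here for gene positions. Pck1 held the cyclic AMP response core TGACG (17.9% of all windows) 90 bases before the start. Pygl held it too, but its window lies wholly inside the gene as placed by that annotation. Phka2 had none. The full cyclic AMP response element TGACGTCA, which contains that core (1.6% of all windows), the forkhead core TGTTTAC (3.2%), the ROR element TGGGTCA (3.3%), and the glucocorticoid response element (0.4%) were in 0 of the 7 windows. A match of letters is a description of these windows and not a site of binding.

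The other targeting subunit, Ppp1r3b, which is the main one of liver, did not share the rise of Ppp1r3c in wild-type mice. It was 240.3 ± 73.5 CPM with vehicle and 209 ± 47.2 with CDDO-Me (log2 fold change -0.21, adjusted p = 0.666), and the groups overlapped. In C151S mice Ppp1r3b was 127, 144, 190, 152, and 178 CPM with vehicle and 329, 167, 206, 248, and 279 with CDDO-Me, with 1 treated mouse inside the control range. This difference, 0.63 ± 0.18 on the log2 scale, had an unadjusted p of 0.00472 and an adjusted p of 0.333. In knockout mice the log2 fold change was 0.28 (adjusted p = 0.873).

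Gys2, the liver glycogen synthase, did not rise with Gbe1. It was 179, 123, 169, 176, and 168 CPM in wild-type vehicle mice and 113, 101, 138, 154, and 127 in wild-type CDDO-Me mice, and the groups overlapped (log2 fold change -0.37 ± 0.12, adjusted p = 0.118). The log2 fold changes in C151S and knockout mice were 0.04 ± 0.44 (adjusted p = 0.973) and -0.52 ± 0.38 (adjusted p = 0.757), with standard errors over 3 times that of wild-type mice.

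Of the breakdown genes, the phosphorylase was lower with CDDO-Me in wild-type mice by less than the size required. Pygl was 599, 518, 629, 591, and 583 CPM with vehicle and 448, 462, 470.1, 443, and 362 with CDDO-Me. No treated mouse reached the lowest control. The log2 difference of -0.43 ± 0.08 had an adjusted p of 0.0122 (0.0986 with 1 fit of all 30 libraries) and was under the threshold of 0.5. The C151S mice went from 459.8 ± 37.9 to 384 ± 64.8 CPM (adjusted p = 0.372) and the knockout mice from 489 ± 58.8 to 436 ± 76.2 (adjusted p = 0.791). Phka2, the kinase subunit, was 35.2 ± 5.38 and 37.8 ± 2.76 CPM in wild-type mice (log2 difference 0.09, adjusted p = 0.703) and between 26.5 and 36.5 CPM in all 20 mutant mice.

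Of the gluconeogenesis enzymes, 0 of 3 passed in any genotype. G6pc was 1304, 769.9, 1068, 1037, and 1551 CPM in wild-type vehicle mice and 307, 422, 750.2, 817, and 653 in wild-type CDDO-Me mice. A single treated mouse exceeded the lowest control. The log2 fold change was -0.97 ± 0.25 with an adjusted p of 0.0531. It did not pass with 1 fit of all 30 libraries (adjusted p = 0.408), with the replicate block, or in 8 of the 10 fits that each left out 1 mouse (up to an adjusted p of 0.136). It passed under DESeq2 (-0.96, adjusted p = 0.0163), with no filter on low counts (adjusted p = 0.0105), without wild-type vehicle replicate 2 (-1.08, adjusted p = 0.0281), and without wild-type CDDO-Me replicate 4 (-1.11, adjusted p = 0.0396). In C151S mice G6pc was 826, 1039, 1310, 199.9, and 259 CPM with vehicle and 205, 411, 407, 406, and 367 with CDDO-Me (-1.03 ± 0.47, adjusted p = 0.363). The 2 lowest of the C151S vehicle mice were the 2 with low Arntl. In knockout mice G6pc was 377 ± 241 and 386 ± 129 CPM (adjusted p = 0.992).

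Pck1 was 2441 to 3532 CPM in wild-type vehicle mice and 1289 to 3586 in wild-type CDDO-Me mice (log2 fold change -0.39 ± 0.24, adjusted p = 0.457). It was 3677 ± 526 and 4436 ± 1025 CPM in C151S mice (0.26, adjusted p = 0.502) and 3367 ± 843 and 3629 ± 878 in knockout mice (0.10, adjusted p = 0.928). Fbp1 went from 984 ± 113 to 858 ± 72.7 CPM in wild-type mice (-0.20 ± 0.09, adjusted p = 0.29), from 1406 ± 108 to 1368 ± 101 in C151S mice, and from 1309 ± 215 to 1466 ± 310.1 in knockout mice, neither of which passed.

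Within the mutants, 0 of 9 members passed in C151S mice, beside 0.092% of the 14128 genes tested, and 0 of 9 passed in Nrf2-knockout mice, beside 0% of 14474. By DESeq2 the count was 0 of 9 in both mutants too, with 0.708% and 0.359% of all genes. At an unadjusted p under 0.05, edgeR gave 2 of 9 members in C151S mice (Ppp1r3b and G6pc) and 0 of 9 in knockout mice, beside 13.7% and 7.85% of all genes.

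**Figure D2:**
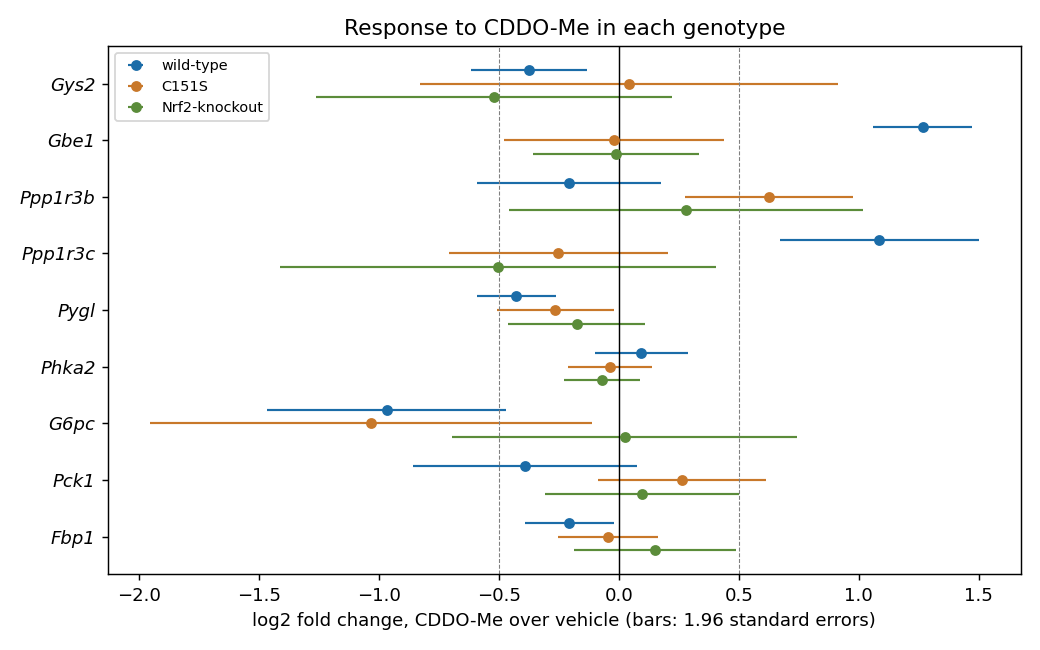
Log2 fold change of each gene, CDDO-Me against vehicle, in the 3 genotypes (n = 5 and 5 each), with dashed lines at the size threshold of 0.5. Bars are 95% confidence intervals by the normal approximation, which is too narrow for so few mice. Gbe1 (1.27) and Ppp1r3c (1.09) stand apart in wild-type mice, and the mutant intervals of both genes contain 0.

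The genotypes were then compared for the response itself. The Gbe1 response of wild-type mice was larger than the C151S response by a log2 difference of 1.29 ± 0.28 (adjusted p = 0.0249) and larger than the knockout response by 1.28 ± 0.28 (adjusted p = 0.0387). These were 1 of 9 members in each, beside 0.48% and 0.266% of the 15010 genes tested, and the comparisons share the wild-type mice. The first call was lost without C151S vehicle replicate 5 (adjusted p = 0.0509). The second was lost in 13 of 30 fits that each left out 1 mouse (adjusted p 0.00945 to 0.0846, log2 difference 1.17 to 1.40); these mice were wild-type vehicle replicates 1, 2, 3, and 5, wild-type CDDO-Me replicates 2 to 5, knockout vehicle replicates 1 and 2, and knockout CDDO-Me replicates 1, 2, and 5. With the replicate number as a block both calls were lost (adjusted p = 0.0574 and 0.0802), and with Arntl, as low or high, as a covariate the differences were 1.37 (adjusted p = 0.000123) and 1.30 (adjusted p = 0.000352).

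The Ppp1r3c response differed by 1.34 ± 0.51 between wild-type and C151S mice and by 1.59 ± 0.51 between wild-type and knockout mice, and neither passed (adjusted p = 0.476 and 0.348). The C151S and knockout responses differed for 0 of 9 members, beside 0.0133% of all genes. For Gbe1 that difference was -0.01 ± 0.28 (adjusted p = 0.998). The count was 0 of 9 at an unadjusted p under 0.05, beside 4.92% of all genes, and 0 of 9 by DESeq2, beside 0.02%.

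Averaged over the 3 genotypes, 2 of 9 members changed, beside 6.39% of all genes. Pygl fell (mean log2 change -0.28 ± 0.07, adjusted p = 0.0155), the same direction in each genotype, while the mean for Gbe1 (0.42 ± 0.11, adjusted p = 0.0268) averaged the wild-type change of 1.27 with changes near 0 in the mutants. Without the 11 low-Arntl libraries G6pc passed as well (-1.01, adjusted p = 0.0353). Any difference among the 6 groups was found for 8 of 9 members, beside 28.9% of all genes, the exception being Ppp1r3b (adjusted p = 0.0645); the count was 5 without the 11 libraries, beside 22.1% of all genes, and also 5 without wild-type CDDO-Me replicate 1, beside 23.9%.

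Among 25 other listed genes of glycogen metabolism, 21 could be tested in wild-type mice. With CDDO-Me 2 rose and 0 fell, beside 2.75% of all genes that passed (median log2 fold change 0.13, against -0.01 over all genes). Ugp2, which makes the UDP-glucose that the synthase uses, went from 323 ± 50.6 to 485 ± 106 CPM (0.58 ± 0.15, adjusted p = 0.0475), a call lost without vehicle replicates 2, 3, 4, or 5 or CDDO-Me replicates 3, 4, or 5 (adjusted p 0.035 to 0.122 over the 10 fits that each left out 1 mouse). Ppp1r3e, another targeting subunit, was low and went from 3.81 ± 0.465 to 5.92 ± 0.508 CPM (0.63 ± 0.11, adjusted p = 0.00793).

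The difference between the wild-type and C151S responses was 1.00 for Ugp2 (adjusted p = 0.31) and 0.13 for Ppp1r3e (adjusted p = 0.927), and that between the wild-type and knockout responses was 0.79 (adjusted p = 0.651) and 0.41 (adjusted p = 0.891), so that neither gene passed. In C151S and knockout mice 0 of 21 and 0 of 22 tested genes of the list passed, beside 0.092% and 0% of all genes.

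**Figure D3:**
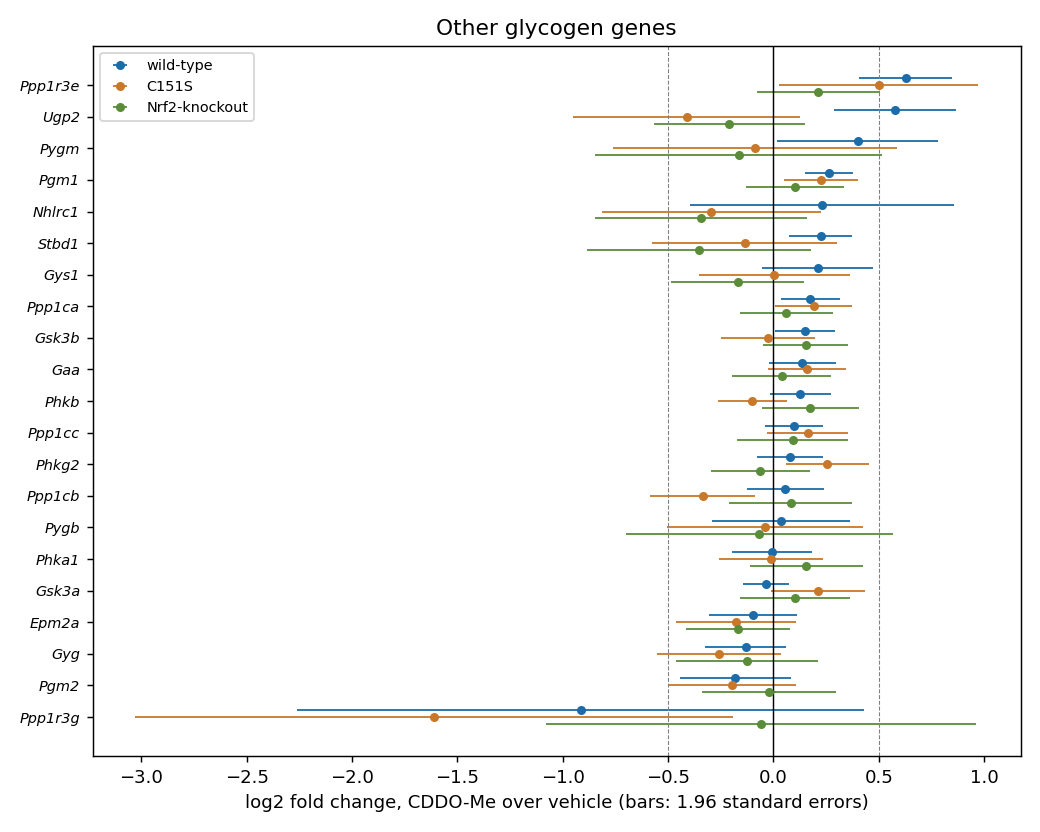
Log2 fold change, CDDO-Me against vehicle, of the other genes of glycogen metabolism that could be tested in wild-type mice, for each genotype (n = 5 and 5). Bars are 95% confidence intervals by the normal approximation, which is too narrow for so few mice. Ppp1r3e (0.63) and Ugp2 (0.58), the wild-type changes that passed, are at the top, past the dashed line at 0.5.

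The neighbouring pathways were read in wild-type mice in the same way, beside the 2.75% of all genes that passed. Of 23 other gluconeogenesis genes tested 0 passed (median log2 fold change -0.11), of 12 glycolysis genes 0 passed (median -0.01), and of 16 clock genes 0 passed. Of 25 genes that control the pathways, 2 fell: Mlxipl, the carbohydrate-responsive factor ChREBP (-0.67, adjusted p = 0.000535), and Foxo3, a factor held in check by insulin signalling (-0.58, adjusted p = 0.0163; 0.0516 without wild-type vehicle replicate 3). In C151S and knockout mice 0 genes of these 4 lists passed, beside 0.092% and 0% of all genes. The periportal marker genes, which mark the zone where gluconeogenesis is known to be strongest, summed to 6533 to 9592 CPM in wild-type CDDO-Me mice and 9284 to 11630 in wild-type vehicle mice (Cps1 the highest); the part of zone composition in the lower Pygl and G6pc levels was not tested.

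Comparing genotypes under the same treatment, some members were higher and some lower in the mutants. Among vehicle mice, 1 of 9 members passed between C151S and wild-type, beside 4.84% of 13946 genes tested, and 3 of 9 between knockout and wild-type, beside 10.4% of 14030. Among CDDO-Me mice the counts were 3 of 9 for C151S, beside 5% of 13844, and 4 of 9 for knockout, beside 9.44% of 13935. The vehicle and the CDDO-Me comparisons each reuse 1 set of wild-type mice for both mutants. The median sums of zone and cell type markers differed by genotype too, and these differences were not tested. The pericentral median was 8820 CPM (6197 to 9482) in wild-type vehicle mice. It was 5588 (4030 to 12150) in C151S and 4430 (3719 to 9576) in knockout vehicle mice, so that the ranges overlapped. After CDDO-Me it was 9517 (7412 to 9654), 7103 (5751 to 13050), and 3584 (3282 to 8989) in the same order, and these ranges overlapped too. Cyp2e1 was the highest gene of the pericentral list. The periportal medians with vehicle were 10020 (9284 to 11630), 12710 (9455 to 14370), and 12580 (8431 to 13800), which overlapped as well. After CDDO-Me they were 7106 (6533 to 9592), 10430 (5593 to 13010), and 9866 (8879 to 11120), again with overlap. The sinusoidal endothelial markers (Stab2 the highest) had median sums of 172, 234, and 265 CPM in the vehicle groups and of 167, 215, and 194 in the CDDO-Me groups. The part of zone or cell composition in the differences of Fbp1, Gbe1, and G6pc given next was not tested.

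Fbp1 was higher in C151S mice with either treatment and in knockout mice after CDDO-Me. Its wild-type values were 986, 1173, 879, 959, and 923 CPM with vehicle and 972, 814, 810.5, 804, and 889.9 with CDDO-Me. The C151S values were 1363, 1376, 1404, 1299, and 1587 CPM with vehicle and 1267, 1420, 1267, 1500, and 1385 with CDDO-Me, and every C151S mouse was above every wild-type mouse. The log2 difference from wild-type was 0.53 ± 0.10 with vehicle (adjusted p = 0.00893) and 0.69 ± 0.11 with CDDO-Me (adjusted p = 0.00333). The vehicle difference was 0.49 without wild-type vehicle replicate 3 and 0.48 without C151S vehicle replicate 5, both under the size threshold. The knockout values were 1446, 1422, 1494, 1206, and 979 CPM with vehicle and 1577, 1764, 1677, 1312, and 1002 with CDDO-Me, and the lowest mouse of the vehicle group lay within the wild-type range. In knockout mice the difference was 0.43 with vehicle (adjusted p = 0.04, under the size threshold, though it passed without wild-type vehicle replicate 2 or knockout vehicle replicate 5) and 0.79 ± 0.15 with CDDO-Me (adjusted p = 0.00544). Without the 11 low-Arntl libraries the 2 C151S differences were 0.52 (adjusted p = 0.00603) and 0.66 (adjusted p = 0.0462), and the knockout differences were 0.19 (adjusted p = 0.442) and 0.70 (adjusted p = 0.0578).

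Gbe1 was lower in knockout mice with either treatment and in C151S mice after CDDO-Me. Among vehicle mice the knockout level was 70.4 ± 11.6 CPM against 105 ± 16.0 in wild-type mice (log2 difference -0.56 ± 0.13, adjusted p = 0.0158; -0.48, under the size threshold, without knockout vehicle replicate 4). C151S vehicle mice were at 81.4 ± 29.3 CPM and did not pass (log2 difference -0.36, adjusted p = 0.275), though Gbe1 passed there without C151S vehicle replicate 4. Without the 11 libraries the vehicle differences were -0.72 in C151S mice (adjusted p = 0.00308) and -0.71 in knockout mice (adjusted p = 0.0388), so that both passed. With CDDO-Me the C151S level was 80.6 ± 22.01 CPM (-1.63 ± 0.16, adjusted p = 0.000156) and the knockout level 70.2 ± 17.6 (-1.83 ± 0.16, adjusted p = 2.3e-05), against 253 ± 21.8 in wild-type mice. Without the 11 libraries these differences were -2.01 (adjusted p = 0.000385) and -2.19 (adjusted p = 0.000113). Ppp1r3c was lower in the mutants after CDDO-Me (C151S -1.41 ± 0.25, adjusted p = 0.00784; knockout -1.83 ± 0.33, adjusted p = 0.00402). Without the 11 libraries these were -1.14 (adjusted p = 0.0927) and -1.22 (adjusted p = 0.0378). With vehicle the Ppp1r3c log2 differences were -0.07 (95% interval by the normal approximation -0.46 to 0.32) and -0.25 (-1.02 to 0.52).

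The Gys2 differences between genotypes were those that depended most on the low-Arntl libraries. With all libraries, knockout mice were higher than wild-type mice by 1.04 ± 0.29 on the log2 scale with vehicle (adjusted p = 0.0331) and by 0.90 ± 0.26 with CDDO-Me (adjusted p = 0.0441). Leaving out 1 mouse at a time ended the call in 7 of 10 fits with vehicle (any wild-type vehicle mouse, or knockout vehicle replicates 2 or 3; 0.88 to 1.23, adjusted p 0.00641 to 0.0817) and in 8 of 10 with CDDO-Me (any wild-type CDDO-Me mouse, or knockout CDDO-Me replicates 1, 3, or 4; 0.72 to 1.06, adjusted p 0.0105 to 0.11). Without the low-Arntl libraries, which leaves 2 knockout mice in each group, both differences were 0.08 (adjusted p = 0.788 and 0.808). The C151S differences, which had not passed (0.87, adjusted p = 0.0795; 1.29, adjusted p = 0.0559), were then 0.31 and 0.05.

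G6pc was lower in knockout than in wild-type vehicle mice. The knockout values were 430.5, 216, 217, 245, and 778 CPM, and 1 of 5 reached the wild-type range that begins at 769.9. The log2 difference was -1.59 ± 0.35 (adjusted p = 0.0127), and it was -1.14 (adjusted p = 0.111) without the low-Arntl libraries. Pygl and Phka2 differed from wild-type by less than the required size, the first in C151S vehicle mice (-0.33, adjusted p = 0.0246) and the other in knockout CDDO-Me mice (-0.28, adjusted p = 0.0304); without the low-Arntl libraries these were -0.35 (adjusted p = 0.0099) and -0.28 (adjusted p = 0.167). Pck1 passed in 0 of the 4 comparisons, with its largest difference after CDDO-Me in C151S mice (0.97, adjusted p = 0.0569; 0.69, adjusted p = 0.374, without the low-Arntl libraries). There Pck1 passed under DESeq2, with no filter, with the replicate block, with 1 fit of all 30 libraries, and without C151S CDDO-Me replicates 1 or 2 or wild-type CDDO-Me replicate 5. In knockout CDDO-Me mice Pck1 passed with 1 fit of all 30 libraries and without wild-type CDDO-Me replicate 5. Gys2 passed in C151S CDDO-Me mice under the alternatives named for Pck1 there, except the block and wild-type replicate 5. G6pc passed there with the block. With vehicle, Gys2 passed in C151S mice under DESeq2 and without C151S vehicle replicate 3. Ppp1r3b passed in 0 of the 4 comparisons, at -0.59 in C151S vehicle mice (adjusted p = 0.0745), where it passed under DESeq2, with the block, and without wild-type vehicle replicate 1, and at -0.86 in knockout vehicle mice (adjusted p = 0.0936), where it passed with 1 fit of all 30 libraries and without knockout vehicle replicate 4.

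**Figure D4:**
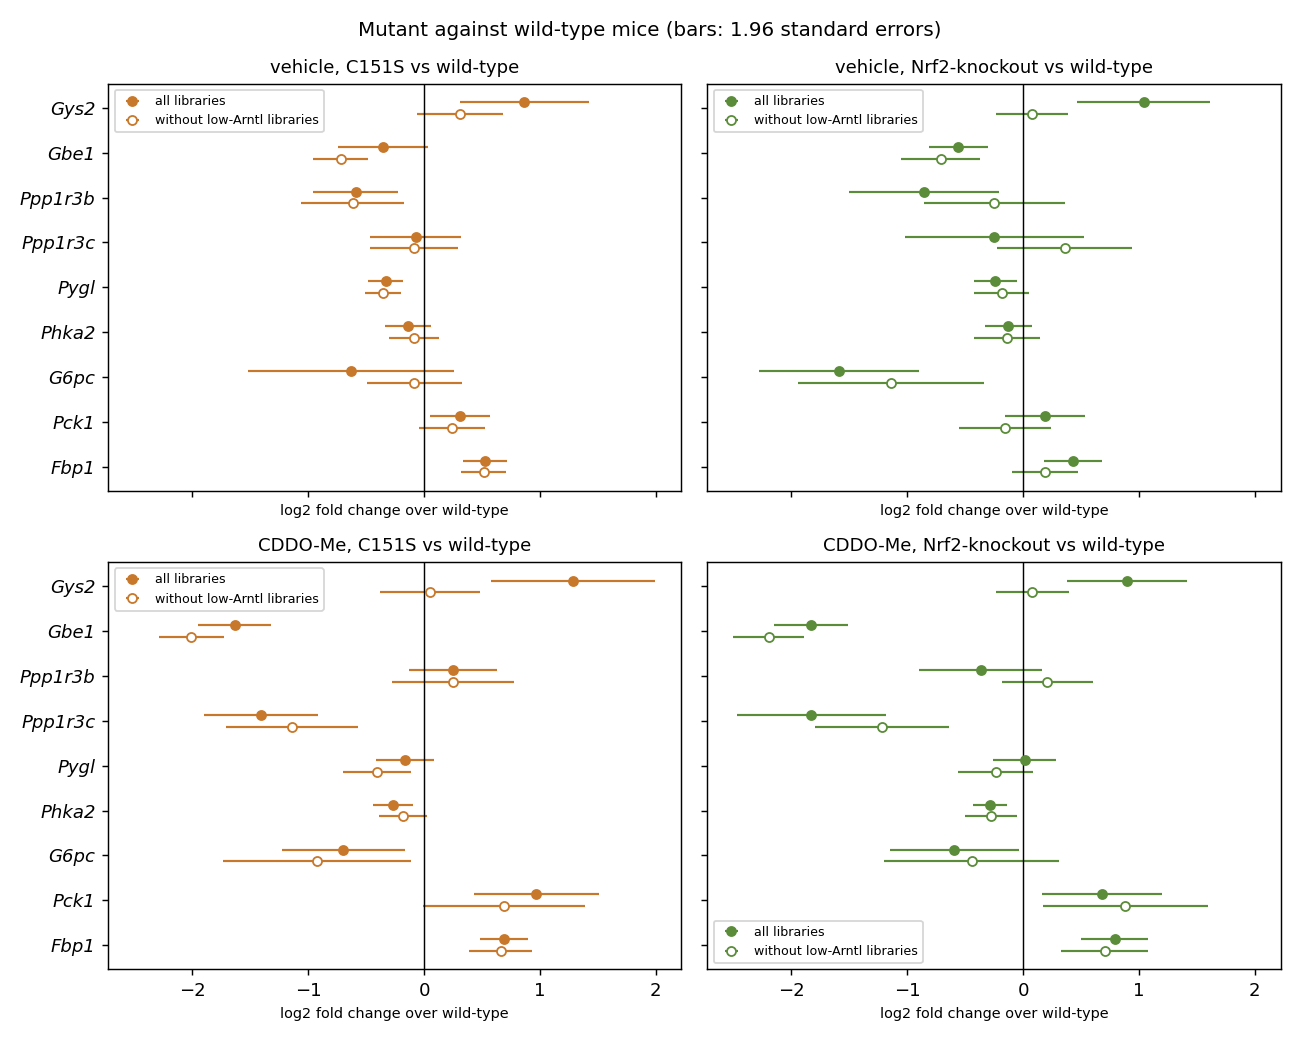
Log2 difference of each gene between mutant and wild-type mice under vehicle and under CDDO-Me, with all libraries (filled points) and without the 11 libraries with low Arntl (open points). Bars are 95% confidence intervals by the normal approximation, which is too narrow for so few mice, most of all for the open points. The Gys2 differences in knockout mice go from 1.04 and 0.90 to 0.08 and 0.08, while the Gbe1 differences stay below 0 and the Fbp1 differences above 0.

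Between C151S and knockout mice 0 of 9 members passed with vehicle, beside 0.349% of 14323 genes tested, and 0 of 9 with CDDO-Me, beside 0.162% of 14186. Where so few genes pass, a count of 0 of 9 is not a result about the members. At an unadjusted p under 0.05 the edgeR counts were 0 of 9 in both, beside 11.3% and 7.82% of all genes.

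Among the other lists, between the mutants and wild-type mice, the genes that passed in at least 3 comparisons were, beside Nfe2l2 and NRF2 targets, Ciart, a repressor within the clock (3.66 and 3.04 in C151S mice and 3.92 and 2.19 in knockout mice, with vehicle and CDDO-Me), Sds, serine dehydratase, which feeds serine carbon into pyruvate (C151S 1.06 with vehicle and 1.52 with CDDO-Me, knockout 1.31 with CDDO-Me), and Irs1, an insulin receptor substrate (knockout -0.73 with vehicle and -0.76 with CDDO-Me, C151S -0.61 with CDDO-Me). Of the other glycogen genes 3 were higher in knockout vehicle mice: Gys1, the muscle form of the synthase (0.77, adjusted p = 0.00489), Pygb, the brain form of the phosphorylase (0.86, adjusted p = 0.0489), and Pgm2 (0.59, adjusted p = 0.0136). After CDDO-Me, Ugp2 and Ppp1r3e were lower in knockout than in wild-type mice (-1.14 and -0.60) and Pgm2 was higher (0.75). Between knockout and wild-type mice 10.4% of all genes passed with vehicle and 9.44% with CDDO-Me. The glycogen list was not tested against these shares.

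Without the 11 libraries Ciart passed in 0 of the 4 comparisons (adjusted p 0.0699 to 0.997). Sds still passed in C151S vehicle mice (0.94, adjusted p = 0.0249) and in knockout CDDO-Me mice (1.39, adjusted p = 0.049), but not in C151S CDDO-Me mice (1.02, adjusted p = 0.236). Irs1 still passed after CDDO-Me (C151S -0.73, adjusted p = 0.0453; knockout -0.63, adjusted p = 0.033) and not with vehicle (-0.32, adjusted p = 0.216). In knockout vehicle mice Gys1 was then at 0.66 (adjusted p = 0.0637), Pygb at 0.86 (adjusted p = 0.0763), and Pgm2 at 0.66 (adjusted p = 0.0301). Ugp2, Ppp1r3e, and Pgm2 still passed in knockout CDDO-Me mice (-1.44, -0.72, and 0.92).

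The spread of Gys2 within the mutant groups followed Arntl. C151S vehicle mice were 132.9 to 263 CPM when Arntl was high and 393.5 to 490.5 when it was low, and C151S CDDO-Me mice 96.9 to 162 and 355 to 459.6. Knockout vehicle mice were 148 to 187 CPM when Arntl was high and 384 to 474 when it was low, and knockout CDDO-Me mice 126 to 136 and 242 to 342. In each of the 4 groups the 2 sets did not overlap, and of the 9 mutant mice with high Arntl 5 lay within the wild-type range of 101 to 179 CPM, the other 4 being at 96.9, 187, 198.5, and 263. With the mean of the same group and Arntl class subtracted, the Pearson correlation of Gys2 with Arntl on the log2 scale was -0.77 over the 19 libraries with high Arntl and -0.80 over the 11 with low Arntl, points that share library and depth.

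Gbe1 was also higher at low Arntl, with no overlap in 3 of the 4 mutant groups. It was 59.2 to 65.8 CPM at high and 91.0 to 129 at low Arntl in C151S vehicle mice, 57.1 to 68.0 and 76.9 to 115 in C151S CDDO-Me mice, and 48.9 to 59.7 and 66.9 to 92.1 in knockout CDDO-Me mice. Its correlations with Arntl, computed as for Gys2, were -0.32 and -0.20. G6pc in C151S vehicle mice was 826 to 1310 CPM at high Arntl and 199.9 to 259 at low Arntl, the opposite order. In the other mutant groups its ranges overlapped, at 204.9 to 410.8 and 367 to 406.9 CPM in C151S CDDO-Me mice. They were 245 to 777.9 and 215.7 to 430.5 in knockout vehicle mice, and 293.9 to 564.7 and 237.1 to 450.6 in knockout CDDO-Me mice. The C151S difference in mean log2 CPM of G6pc, CDDO-Me minus vehicle, was -1.84 among high-Arntl mice and 0.79 among low-Arntl mice (2 or 3 mice a group). The edgeR fit of the high-Arntl mice gave -1.78 (adjusted p = 0.455), and the low-Arntl mice were not tested alone. The high-Arntl CDDO-Me mice were C151S replicates 1 and 2 (204.9 and 410.8 CPM). Replicate 1 is the library flagged below for its low G6pc and its markers. Ppp1r3b in knockout mice was 65.2 to 117 CPM at low Arntl and 141 to 252 at high Arntl, while in C151S mice its ranges overlapped with either treatment. Pck1 correlated with another clock gene, Per1, at 0.78 over the 19 high-Arntl libraries and at 0.16 over the other 11, with the same subtraction. Other pairs were as strong on 1 side, such as Ppp1r3c with Per1 (-0.77 and -0.28) and Pck1 with the clock gene Nr1d1 (-0.27 and 0.89).

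**Figure D5:**
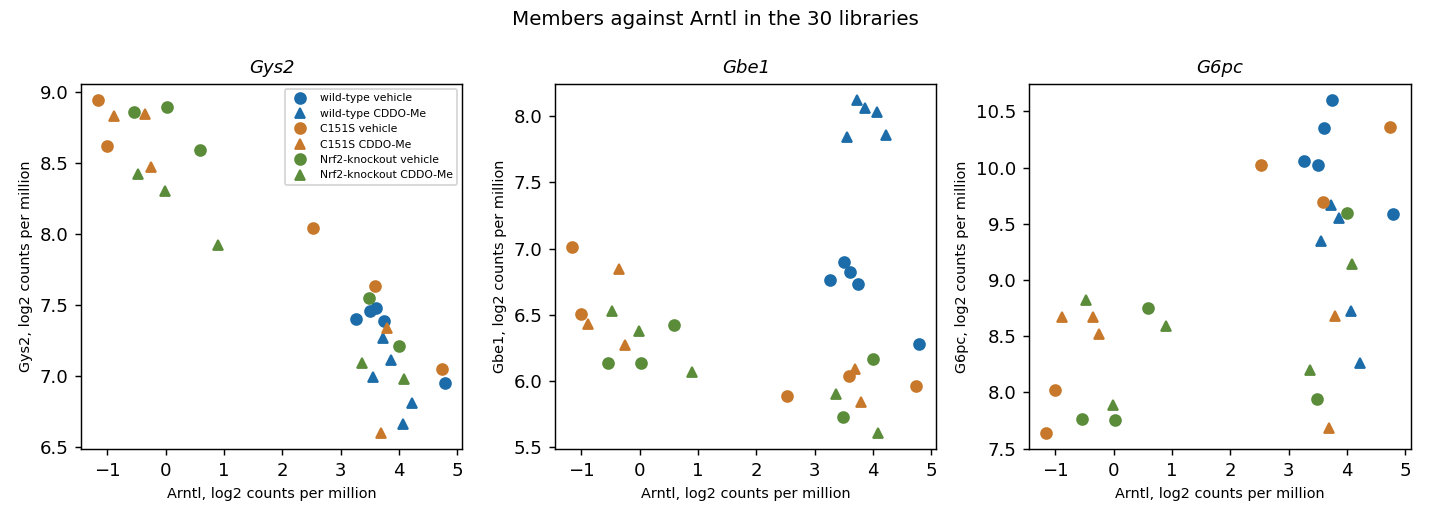
Level of Gys2, Gbe1, and G6pc (log2 CPM) against that of Arntl (log2 CPM) in the 30 libraries, 1 point a mouse, with colours for genotype and symbols for treatment. The 11 libraries at or below 0.90 on the Arntl axis hold no wild-type mouse, and the highest Gys2 levels are among them, while Gbe1 is highest in the wild-type CDDO-Me mice.

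The members did not form 1 block of genes that moved together. Across the 30 libraries Gys2 and Gbe1, the consecutive enzymes of glycogen synthesis, correlated at -0.23, but at 0.74 after subtraction of group means. Gbe1 and Fbp1 correlated at -0.73, which was -0.13 after the subtraction. Pck1 and Fbp1 were positively correlated (0.67 and 0.40) and Gys2 and Ppp1r3c negatively (-0.66 and -0.60). These describe 30 libraries that share depth and group structure.

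The genes with the pattern most like each member were ranked by Pearson correlation of log2 CPM over the 30 libraries. For Gbe1 they were Slc25a17 (0.947), the pentose phosphate enzyme Tkt (0.946), and the biliverdin reductase Blvrb (0.936), with 0.761, 0.799, and 0.785 after subtraction of group means. For Gys2 they were Ngef (0.928), Adarb1 (0.903), and Upp2 (0.901), a uridine phosphorylase. Fbp1 was closest to Fuom (0.904), Fh1 (0.871), and Sulf2 (0.854).

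The remaining members had less close neighbours. Pck1 was nearest to Rnf169 (0.847), Per1 (0.838), and Cdip1 (0.81), G6pc to Irf2bp2 (0.844), Irak2 (0.804), and Dyrk2 (0.779), and Pygl to Car3 (0.834), Cyb5r3 (0.832), and Acacb (0.825). Ppp1r3c was nearest to Unkl (0.816), Lsm10 (0.811), and Slc11a2 (0.81), Phka2 to Arid1b (0.812), Washc2 (0.805), and Ripply1 (0.804), and Ppp1r3b to P4ha2 (0.773), Zfp189 (0.769), and Celsr1 (0.761).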

How the data were processed

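Raw read counts per gene of 30 liver libraries were used as the authors deposited them. Per the study's methods, polyadenylated RNA was sequenced as stranded paired-end libraries, reads were assessed with fastp without removal, aligned to mm10 with STAR 2.7.7, and counted uniquely placed against GENCODE M23 on the second strand, so that reads shared between near-identical genes are not in the counts. The 4 summary lines that name no gene were left out, and genes took 65.9% to 80.6% of the reads. Depth was 23667068 to 42073169 counts per library. The submitters' processing notes name edgeR 3.36.0, and the authors' model held the date of sample isolation, which was not used here.

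Groups came from the sample labels. Replicates are mice, and nothing used here says which were littermates or housed together. In edgeR 4.0.16 (R 4.3.3), filterByExpr, TMM factors, and the quasi-likelihood F-test were applied to the 10 libraries of each pairwise comparison, and to all 30 libraries for differences between responses, their mean, and any difference among the 6 groups. P-values were adjusted over all genes tested by Benjamini-Hochberg. A gene passed a pairwise comparison at an adjusted p under 0.05 and a log2 fold change of at least 0.5 in size, and passed in the 30-library fit at an adjusted p under 0.05. SE was taken from the F statistic, as the size of the log2 fold change over its square root. Alternatives included DESeq2 1.42.0, and the procedure was tested on simulated counts. No 2 libraries were identical.

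The members, gene lists, and tests were chosen with earlier results of these data known. All members were named, and of the other lists those that passed in wild-type mice or in 3 or more of the 6 comparisons between genotypes. Other genes named from those comparisons or from the 30-library fit, and the values by Arntl level, were picked after they were seen. Of 184 listed symbols 183 were found, and Tf was not; 1 further gene is not reported here and is in no list count.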

Additional observations from a re-analysis of the deposited data

Results flagged for a closer look

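The Gbe1 response to CDDO-Me differed between genotypes by a test of the difference itself, by 1.29 on the log2 scale between wild-type and C151S mice and by 1.28 between wild-type and knockout mice. Both calls were lost with the replicate block (adjusted p = 0.0574 and 0.0802), and leaving out 1 mouse ended the first in 1 and the second in 13 of 30 fits.

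In 5 of the 54 sets of 5 mice (9 genes in 6 groups), 1 mouse stood far from the rest; chance gives about 1 in 20. In wild-type vehicle mice, replicate 2 was lowest for both glycogen synthesis enzymes, at 6.95 log2 CPM for Gys2 (the others 7.39 to 7.48) and at 6.28 for Gbe1 (6.73 to 6.90). Wild-type CDDO-Me replicate 5 was lowest for Pygl at 8.50 (8.79 to 8.88). C151S CDDO-Me replicate 1 was lowest for G6pc at 7.68. This library also had the lowest summed hepatocyte (58930 CPM), periportal (5593), and erythroid (99.95) markers and the highest neutrophil markers (14.9) of the 30. Nrf2-knockout CDDO-Me replicate 2 was highest for Pck1 at 12.34. The part of RNA quality or sampling in these values was not tested.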

How the results depend on the processing

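Of the 9 pairwise comparisons and 5 tests in the 30-library fit, these changed their number of members that passed by over 1.5 times; the share of all genes that passed is given in parentheses. In wild-type mice the number was 1 with 1 fit of all 30 libraries (0.979%), in place of 2 (2.75%). For C151S against wild-type vehicle mice it was 3 with DESeq2 (7.21%), 2 with the replicate block (4.07%), 2 with no threshold on size (8.32%), and 2 without the libraries with low Arntl (14.2%), in place of 1 (4.84%). For C151S against wild-type CDDO-Me mice it was 5 with DESeq2 (8.21%), with no filter on low counts (2.94%), with the replicate block (5.97%), and with 1 fit of all 30 libraries (6.67%), in place of 3 (5%). Without the libraries with low Arntl, an alternative chosen after seeing the data, knockout against wild-type gave 1 with vehicle (8.08%) and 2 with CDDO-Me (7.49%), in place of 3 and 4, and any difference among the 6 groups gave 5 (22.1%). Leaving out 1 mouse gave 0 (3.39% and 5.05%) to 2 (3.46% to 8.28%) for C151S against wild-type vehicle mice, 3 to 5 (7.19% and 9.28%) for C151S against wild-type CDDO-Me mice, 0 (0.408% against C151S, 0.184% to 0.284% against knockout) to 1 for each difference between the wild-type and a mutant response, and 5 (23.9%) to 9 for any difference among the groups. Where fewer libraries were used, the lower number was tested with fewer mice; the cause of the other changes was not tested.

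The replicate numbers did not pair the mice throughout. Deviations of same-numbered mice correlated at -0.185 to 0.176 on average over 2000 genes, and in no comparison did every pair exceed 0.1. The lowest average was between C151S and knockout vehicle mice, where differently numbered mice averaged 0.047. The highest was between knockout CDDO-Me and vehicle mice, where differently numbered mice averaged -0.044 and 3 mice correlated best with their own number. A pairing in part of the groups was not tested. With the replicate block the Gbe1 response differences were 1.28 (adjusted p = 0.0574) and 1.31 (adjusted p = 0.0802), so that 0 members passed in both (0.346% and 0.153% of all genes), the Gys2 difference of knockout vehicle mice was 0.90 (adjusted p = 0.083), and Ugp2 in wild-type mice was 0.57 (adjusted p = 0.0637). With 1 fit of all 30 libraries, the adjusted p was 0.0687 and 0.122 for Gys2 in knockout against wild-type mice, 0.0835 for Ppp1r3e, 0.323 for Ugp2, and 0.17 for Foxo3 in wild-type mice.

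Signs turned only for changes that had not passed, among the results run. In C151S mice the Gys2 change was -0.08 with the replicate block, -0.34 with low or high Arntl as a covariate, and -0.61 without the low-Arntl libraries, Gbe1 was 0 with the block and 0 without those libraries, Phka2 was 0.02 and Ppp1r3c 0.05 without them. In knockout mice Gbe1 was 0.01 with no filter and G6pc -0.27 without those libraries. With 1 mouse left out, the ranges that crossed 0 were -0.15 to 0.29 for Gys2, -0.18 to 0.20 for Gbe1, and -0.08 to 0.02 for Phka2 in C151S mice, and -0.12 to 0.10 for Gbe1, -0.14 to 0.48 for G6pc, and -0.06 to 0.20 for Pck1 in knockout mice. The lowest count of a member in any library was 611.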

Other observations

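Markers of liver zones and of other cell types were read in wild-type mice, where 2.75% of all genes passed. Of the pericentral hepatocyte markers, 1 of 6 rose with CDDO-Me, Cyp1a2, a drug-metabolizing cytochrome P450 (0.65 on the log2 scale, adjusted p = 0.0327), and Cyp1a2 was lower in both mutants than in wild-type mice after CDDO-Me (C151S -1.55, adjusted p = 0.00791; knockout -1.95, adjusted p = 0.00642), also without the low-Arntl libraries (-2.25 and -3.00). Of the periportal markers 0 of 6 passed (median -0.42), and of the general hepatocyte markers 0 of 4 (median -0.23), against a median of -0.01 over all genes. Erythroid Alas2, which starts heme synthesis in red cell precursors, fell by 0.60 (adjusted p = 0.0113), 1 of 4 erythroid markers.

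Of the neutrophil markers 2 of 5 could be tested, and S100a8, a calcium-binding protein of granulocytes, rose (1.69, adjusted p = 0.0235) within a list whose median sum lay between 1.16 and 3.57 CPM over the groups. The cholangiocyte, Kupffer cell, sinusoidal endothelial, stellate cell, and lymphocyte lists had 0 of 5 markers each that passed, again beside 2.75% of all genes. Of the muscle and adipocyte markers 3 of 4 each, and of the pancreas acinar markers 2 of 4, had at most 3 counts in all 30 libraries, and 0 of these 3 lists' markers passed in wild-type mice.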
